A study of Homo sapiens with 6 samples.

Results

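The transcripts described here are 9 long non-coding RNAs that are known from the cell nucleus or from the nervous system and were measured in human embryonic stem cells and in neurons made from them: MALAT1, NEAT1, MIAT, RMST, SOX2-OT, DLX6-AS1, LINC00461, OIP5-AS1 and PANTR1. They were chosen by name, as the table entries whose Ensembl identifier carries 1 of these 9 symbols, out of 61853 entries in all. Each symbol had a single entry. Reads were found for all 9, and 7 had enough reads to be tested: 6 of these were higher on day 30 and 1, OIP5-AS1, was lower. Over all 18040 genes tested, 39.8% were higher and 36.8% lower.

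The study compared the established human embryonic stem cell line H9 on day 0 and on day 30 of differentiation into neurons of the arcuate nucleus, a part of the hypothalamus. Both groups are the same unmodified line, each with 3 libraries, and the 6 libraries hold no other line. The day 30 cells had been treated with sonic hedgehog protein (SHH), purmorphamine, SB431542 and LDN-193189 while the medium was changed from KSR to N2, then with B-27 and DAPT, a replating with ROCK inhibitor, and last B-27 with BDNF. The labels mention no sorting of cells, so each value is that of a whole culture. The labels do not say whether the libraries of a day came from separate cultures, so p-values measure only the spread between these libraries.

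Total RNA was depleted of ribosomal RNA and sequenced, so transcripts with and without a poly(A) tail could be counted, nuclear ones included. Libraries held 5013643 to 12924842 counts. Levels are given as CPM, that is, counts scaled to a library total of 1000000, and, to compare genes, as CPM per kilobase (kb) of annotated exon. Log2 changes of day 30 against day 0 are from the quasi-likelihood test of edgeR over all 18040 genes with enough reads, with Benjamini-Hochberg adjustment, and a gene passed at an adjusted p under 0.05. The labelled cell types were checked by their markers: 15 of 15 pan-neuronal genes rose (median log2 change 5.11) and 10 of 10 pluripotency genes fell (median -8.70). The oligodendrocyte gene MOG had no reads and GFAP, an astrocyte filament, was at 0.399 to 1.67 CPM in all 6 libraries. Other glial markers did have reads: on day 30, 7 astroglia markers summed to 276 to 397 CPM. On that day, 8 oligodendroglia markers summed to 30.9 to 61.3 CPM, and both sums were higher on day 0. The day 30 replicate 3 library stood apart by its collagen genes: 10 mesenchymal and endothelial markers summed to 4651 CPM there, against 176 and 657 CPM in the other day 30 libraries and 380 to 508 CPM on day 0.

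A long non-coding RNA is a transcript that is not translated into a protein. Some build or fill compartments of the nucleus: NEAT1 is the scaffold of paraspeckles, MALAT1 collects in nuclear speckles beside splicing factors, and MIAT, also called Gomafu, forms its own scattered nuclear domain. Others are known for the gene they lie beside or for a microRNA: SOX2-OT runs across SOX2, DLX6-AS1 lies opposite DLX6 in the forebrain interneuron locus, PANTR1 lies beside the neural factor gene POU3F3, LINC00461 and RMST enclose microRNA genes, and OIP5-AS1, known as Cyrano in other vertebrates, carries a site that triggers the decay of miR-7. In bulk RNA of this kind, a change in the number of cells that make a transcript and a change in the amount per cell cannot be told apart.

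The sequence elements that give these RNAs their known partners come first, because the results below turn on the genes that carry them. MIAT is known for copies of the heptamer UACUAAC, which is also the branch point sequence read by SF1. Its longest GENCODE 29 transcript (10143 bases) held 7 copies, or 0.690 per kb. Among 3077 long non-coding RNA genes with a transcript of at least 2000 bases, 8.55% held any copy. NEAT1 held 1 copy, DLX6-AS1 held 2, and the other 6 members held 0. The stretch of that MIAT transcript from base 5081 to base 5223 holds 3 of the copies, in capitals as DNA letters.
MIAT: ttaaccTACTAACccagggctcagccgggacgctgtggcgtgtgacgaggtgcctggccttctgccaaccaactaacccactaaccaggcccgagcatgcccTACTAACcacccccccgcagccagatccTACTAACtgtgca

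MALAT1 and NEAT1 share a way of making their 3′ end: a small RNA folded like a transfer RNA is cut off by RNase P. These small RNAs are mascRNA at chr11:65506117-65506173 and menRNA at chr11:65445541-65445598 (hg38, plus strand, GENCODE 29), of 57 and 58 bases. In an alignment of both, 41 bases were identical, shown in capitals.
mascRNA: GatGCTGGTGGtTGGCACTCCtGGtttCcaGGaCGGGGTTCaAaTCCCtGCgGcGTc
menRNA: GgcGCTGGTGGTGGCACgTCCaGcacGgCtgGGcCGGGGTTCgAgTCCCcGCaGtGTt

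The microRNA genes inside members are shown by their mature sequences from RefSeq (GRCh38.p14), with the seed (bases 2 to 8), which pairs with targets, in capitals. LINC00461 encloses MIR9-2, which makes the brain microRNA miR-9. RMST encloses MIR1251 and MIR135A2. No seed is shared among those shown.
miR-9-5p: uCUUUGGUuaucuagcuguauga
miR-1251-5p: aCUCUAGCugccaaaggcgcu
miR-135a-2-3p: aUGUAGGGauggaagccaugaa

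For OIP5-AS1 the element of interest is its match to miR-7. A single transcript of the 10 annotated for the gene (8829 bases) held a site, at bases 2868 to 2894, to which 23 of the 24 bases of miR-7-5p can pair; capitals mark the seed in the microRNA and its complement in the site. The 7 seed-matching letters alone were found in 43.5% of 283 long non-coding RNA genes with a transcript of at least 5000 bases.
miR-7-5p: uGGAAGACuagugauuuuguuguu
OIP5-AS1 site: gaacaacaaaatcaccaatGTCTTCCa

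Beginning with the nuclear scaffolds, MALAT1 (ENSG00000251562, chr11:65497688-65506516, plus strand, hg38) was the most abundant member on both days. It was at 2600, 2132 and 1871 CPM on day 0 and reached 19980, 22010 and 21180 CPM on day 30. Every day 30 library was far above every day 0 library. The mean rose from 2201 ± 370 to 21060 ± 1021 CPM (SD, n = 3), a log2 change of 3.17 ± 0.14 (SE; edgeR adjusted p = 8.57e-09).

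MALAT1 alone took 0.187% to 0.26% of all counts on day 0 and 1.998% to 2.201% on day 30. It ranked 18th to 26th among all entries of a day 0 library and 2nd to 4th of a day 30 library. Above it in the day 30 means were RN7SL1 at 33450 ± 6369 CPM and RN7SL2 at 24470 ± 5556 CPM (SD, n = 3), both signal recognition particle RNA, and AL627171.2, an entry with the same reads as RN7SL2. Below it came RN7SK, the RNA that holds back transcription elongation, at 12810 ± 1031 CPM, the U3 snoRNA entry SNORD3A at 8474 ± 681 CPM, and the microtubule protein gene MAP1B at 5248 ± 192 CPM. MALAT1 was thus the most read entry on day 30 that is not signal recognition particle RNA.

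The MALAT1 gene also covers smaller annotated entries on its strand. The gene and these entries hold fractions of reads, so reads can be shared between them. A change in such an entry is therefore not separate from that of the gene around it. RF01871, a conserved region of 95 bases, had 1579 counts on day 0 and 15251 on day 30, a log2 change of 2.99 ± 0.13 (SE; edgeR adjusted p = 8.92e-09). The mascRNA entry had 11 counts on day 0 and 32.3 on day 30, too few for the test. TALAM1, the transcript named as antisense to MALAT1, was at 2.38, 2.62 and 0.910 CPM on day 0 and 11.4, 7.31 and 10.3 CPM on day 30. Its ranges did not overlap, and it rose by a log2 of 2.23 ± 0.35 (SE; edgeR adjusted p = 1.66e-04); no source used here gives the strand setting of the counting, so reads of MALAT1 and of its antisense partner could not be told apart from the table.

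NEAT1 (ENSG00000245532, chr11:65422774-65445540, plus strand) lies next to MALAT1. It was at 156, 130 and 116 CPM on day 0 and at 527, 545 and 680 CPM on day 30. The lowest day 30 library was above the highest day 0 library. It rose from 134 ± 20.2 to 584 ± 83.3 CPM (SD, n = 3), a log2 change of 2.03 ± 0.13 (SE; edgeR adjusted p = 1.44e-07).

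NEAT1 exists as a short and a long form that share their 5′ part, and the long form alone holds a paraspeckle together. The table has 1 entry for the gene, so the forms were not counted apart, but small entries inside it lie at different distances from its start. The conserved regions RF01955, RF01956 and RF01957, which start 499 to 1186 bases into the gene, rose by a log2 of 1.63, 1.70 and 2.30. MIR612, a microRNA gene 21684 bases into it and therefore in the long form only, had 25 counts on day 0 and 111.5 on day 30, a log2 change of 1.92 ± 0.42 (SE; edgeR adjusted p = 1.57e-03). All 4 passed the test and none of the 4 had overlapping ranges. These entries can share reads with NEAT1, so their rises are not separate from its own. The log2 ratio of MIR612 to the sum of the 3 upstream regions had a mean of -2.03 ± 0.15 in the libraries of day 0 and -2.12 ± 0.59 in those of day 30 (SD, n = 3). The difference of -0.09 had an exact permutation p = 0.8 (2-sided). This ratio was chosen after the values were seen, and its spread on day 30 was too wide to show a small shift.

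MALAT1 and NEAT1 rose to different extents. MALAT1 had 16.1 to 16.6 times the counts of NEAT1 in the day 0 libraries and 31.2 to 40.4 times in the day 30 libraries. The log2 ratio of NEAT1 to MALAT1 went from -4.03 ± 0.03 to -5.18 ± 0.19 (SD, n = 3), so the groups did not overlap. The difference of -1.15 had an exact permutation p = 0.1 (2-sided; also 0.1 after adjustment over the 3 ratios tested), which is the smallest p that 3 against 3 libraries allow. A ratio within a library does not depend on how libraries are scaled.

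MIAT (ENSG00000225783, chr22:26646428-26676475, plus strand) was at 112, 90.6 and 77.5 CPM on day 0 and at 1849, 1725 and 2099 CPM on day 30. The day 30 libraries were all well above those of day 0. It rose from 93.4 ± 17.4 to 1891 ± 190 CPM (SD, n = 3), a log2 change of 4.25 ± 0.15 (SE; edgeR adjusted p = 2.33e-09). Its rank among all entries moved from between 1725 and 2680 in the day 0 libraries to between 21 and 29 in the day 30 libraries, so that on day 30 only MALAT1 was more abundant among the members.

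Along MIAT, the 4 conserved regions annotated within the gene rose with it: RF01874 at 11093 bases from the start had a log2 change of 3.59 ± 0.27, and RF01875, RF01876 and RF01877, between 24974 and 26826 bases, had 4.82 ± 0.25, 4.58 ± 0.32 and 4.43 ± 0.25 (SE). MIATNB, a longer entry that overlaps the 3′ end of MIAT on the same strand, was at 6.77 to 9.75 CPM on day 0 and 49.4 to 54.3 CPM on day 30. It rose by a log2 of 2.51 ± 0.15 (SE; edgeR adjusted p = 8.96e-08). The conserved regions lie within MIAT and can share its reads, so their rises are not separate from that of the gene. MIATNB also holds fractions of reads and can share those of MIAT where they overlap. How much of its rise this makes up was not tested.

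RMST (ENSG00000255794, chr12:97430884-97598415, plus strand) is known as a partner of the SOX2 protein during neurogenesis. It was at 51.9, 29.6 and 23.6 CPM on day 0 and at 195, 194 and 262 CPM on day 30. The ranges did not overlap, though day 0 replicate 1 was well above the other libraries of its day. The mean went from 35.04 ± 14.94 to 217 ± 39.1 CPM (SD, n = 3), a log2 change of 2.55 ± 0.23 (SE; edgeR adjusted p = 2.41e-06).

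RMST encloses 11 entries on its own strand, and all 11 rose, with log2 changes from 1.42 to 3.10. They hold fractions of reads that can be shared with RMST, so these are not 11 results apart from that of the gene. RF01966, 65048 bases from the start, had the largest at 3.10 ± 0.33. The entry of MIR1251 went from 9.5 to 87 counts, a log2 change of 2.85 ± 0.43 (SE; edgeR adjusted p = 1.28e-04). The entry of MIR135A2, 132928 bases from the start, had the smallest rise at 1.42 ± 0.32 (25 to 83.8 counts; SE; edgeR adjusted p = 2.02e-03). These entries count fragments of a total RNA library over the microRNA genes; the mature microRNAs printed above are too short for such libraries and were not measured.

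**Figure D1:**
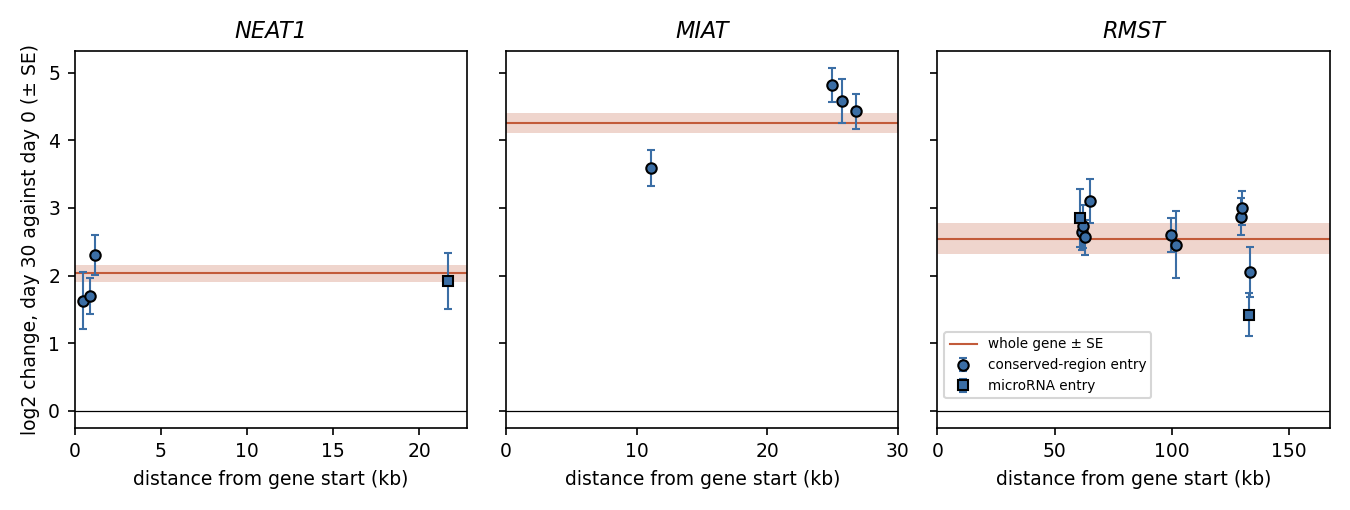
Log2 change of day 30 against day 0 (y axis, bars show SE) for small entries annotated inside NEAT1, MIAT and RMST on the same strand, against their distance from the gene start in kb (x axis). Circles are conserved-region entries and squares are microRNA entries, and the red line with its band is the whole gene with its SE. All entries lie above 0, from 1.42 (MIR135A2 in RMST) to 4.82 (RF01875 in MIAT). Entries can share reads with the gene around them and are not separate from it.

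Turning to members that pair with a neighbouring gene, SOX2-OT (ENSG00000242808, chr3:180989762-181836880, plus strand) was at 4.98, 6.29 and 5.19 CPM on day 0 and 27.3, 21.4 and 18.8 CPM on day 30. The day 30 libraries were all higher. It rose from 5.49 ± 0.70 to 22.5 ± 4.40 CPM (SD, n = 3), a log2 change of 1.95 ± 0.21 (SE; edgeR adjusted p = 8.53e-06).

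SOX2, the pluripotency and neural progenitor factor whose gene lies wholly inside SOX2-OT on the same strand, moved the other way. It was at 225, 196 and 201 CPM on day 0 and 74.0, 76.0 and 37.9 CPM on day 30, with no overlap, and fell by 1.80 ± 0.23 on the log2 scale (SE; edgeR adjusted p = 2.93e-05). The log2 ratio of SOX2-OT to SOX2 within a library went from -5.23 ± 0.27 to -1.42 ± 0.41 (SD, n = 3; exact permutation p = 0.1, the smallest possible, and 0.1 adjusted over the 3 ratios). On the linear scale, SOX2 had 30.8 to 44.6 times the counts of SOX2-OT on day 0 and 2.02 to 3.54 times on day 30.

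DLX6-AS1 (ENSG00000231764, chr7:96955141-97014065, minus strand), known from the ventral forebrain and its GABAergic interneurons, was the member with the largest log2 change. On day 0 it had a single read, in replicate 3, and on day 30 it was at 26.3, 22.9 and 33.2 CPM (717.5 counts in all). It went from near absence to a low but steady level in all 3 libraries. The ratio of the rates was 616, with a 95% counting interval of 110 to 24400 that covers counting error only, and the log2 change was 8.82 ± 0.44 (SE; edgeR adjusted p = 1.96e-08).

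The protein genes of the same locus had far fewer counts than the RNA on day 30. DLX6, which lies inside DLX6-AS1 on the opposite strand, had no reads on day 0 and 31 on day 30, at 1.14, 1.24 and 0.798 CPM. That is at least 8.88-fold higher, against a floor of 3 counts over the day 0 group. DLX5, the adjacent factor gene, had no reads on day 0 and was at 1.24, 0.619 and 1.99 CPM on day 30. Neither had enough reads for the test. These genes have less exon than DLX6-AS1, and per kb of exon the gap was narrower. The day 30 means were 1.65 ± 0.32 for DLX6-AS1, 0.735 ± 0.394 for DLX5 and 0.307 ± 0.067 CPM per kb for DLX6 (SD, n = 3).

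Of 14 GABAergic and ventral forebrain genes, 9 were tested, of which 8 rose and 1 fell (median log2 change 7.05). Among all genes tested, 39.8% rose and 36.8% fell. NKX2-1, the ventral forebrain and hypothalamic factor, had no reads on day 0 and was at 54.6, 58.4 and 45.9 CPM on day 30, at least 434-fold higher. GAD2, an enzyme that makes GABA, was at 0 to 0.139 CPM on day 0 and at 132, 134 and 86.0 CPM on day 30, with a log2 change of 10.14 ± 0.40 (SE; edgeR adjusted p = 4.24e-09). LHX6, a factor of cortical interneurons, fell by 2.98 ± 0.58 on the log2 scale (SE; edgeR adjusted p = 7.16e-04) from 1.95 to 2.71 CPM to at most 0.619 CPM.

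LINC00461 (ENSG00000245526, chr5:88507546-88691041, minus strand) was close to absent on both days. It had 2.5, 0 and 6 counts on day 0 and 0, 0 and 9 on day 30. The ranges overlapped, 2 of 3 day 30 libraries had no reads, and the gene did not pass the filter on low counts. The MIR9-2 entry inside it had 0.5 counts on day 0 and 1 on day 30. MEF2C, the neuronal transcription factor gene next to LINC00461, rose in the same libraries by a log2 of 6.21 ± 0.21, from 0.975 to 1.93 CPM up to 108 to 132 CPM (SE; edgeR adjusted p = 2.06e-09).

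PANTR1 (ENSG00000233639, chr2:104807572-104853183, minus strand) had no reads on day 0 and 0, 1 and 4 on day 30. Its neighbour POU3F3 had 2 counts on day 0 and 4.5 on day 30. Neither passed the filter on low counts. In the fit with no such filter, the edgeR adjusted p was 0.118 for PANTR1, 0.542 for POU3F3 and 0.918 for LINC00461. Most of the few day 30 reads of LINC00461 and PANTR1 came from replicate 3, the library with high collagen genes. The part of that difference in these reads was not tested.

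OIP5-AS1 (ENSG00000247556, chr15:41283990-41309737, plus strand) was the only tested member to fall. It was at 220, 240 and 257 CPM on day 0 and at 66.9, 72.1 and 74.7 CPM on day 30. Every day 30 library was below every day 0 library, and both groups were tight. The mean went from 239 ± 18.6 to 71.2 ± 3.98 CPM (SD, n = 3), 3.35-fold lower, with a log2 change of -1.84 ± 0.12 (SE; edgeR adjusted p = 1.61e-07).

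Of its neighbours, OIP5 and NUSAP1 fell further and CHP1 less. OIP5, a centromere protein gene that overlaps OIP5-AS1 from the opposite strand, was at 20.2, 18.9 and 18.1 CPM on day 0 and at 0.103, 0.0774 and 0.199 CPM on day 30, where it had 3 counts in all. Its log2 change was -7.35 ± 0.32 (SE; edgeR adjusted p = 8.05e-09), and NUSAP1, a spindle protein gene nearby, fell by 5.85 ± 0.17 on the log2 scale. CHP1, which ends upstream of OIP5-AS1, fell by 0.56 ± 0.16 (SE; edgeR adjusted p = 7.47e-03) and was named outside the rule for named genes. The log2 ratio of OIP5-AS1 to OIP5 went from 3.64 ± 0.19 to 8.67 ± 0.66 (SD, n = 3; exact permutation p = 0.1, the smallest possible, and 0.1 adjusted over the 3 ratios). Since it rests on 3 counts of OIP5, its day 30 value depends on the 0.5 counts added to each gene, and the difference was 5.03 with 0.5 and 3.08 with 5 counts added.

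A further entry on the strand of OIP5-AS1, AC087721.2, begins 23 bases from its start and runs on past it. This entry is annotated as protein-coding and ends at chr15:41380743, inside NUSAP1 on the same strand (chr15:41332694-41381050). It went from 1796 counts on day 0 to 99 on day 30, a log2 change of -4.51 ± 0.14 (SE; edgeR adjusted p = 1.56e-09). OIP5-AS1, AC087721.2 and NUSAP1 all hold fractions of reads. With the reads of AC087721.2 added to it, an alternative chosen after seeing the data, the log2 change of OIP5-AS1 was -2.17. The added reads can include reads of NUSAP1, whose part was not tested.

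**Figure D2:**
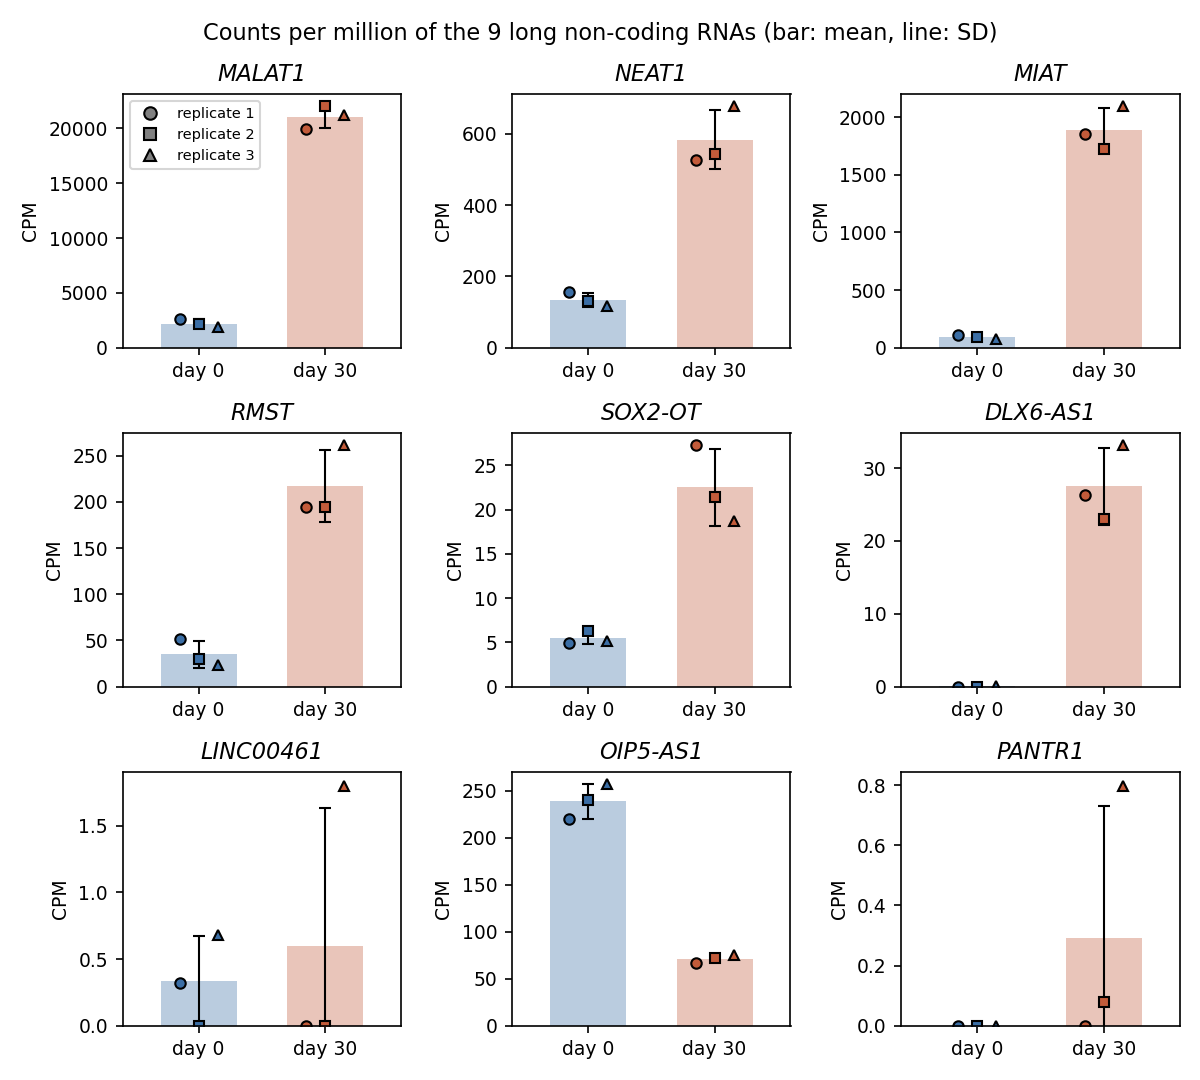
CPM (y axis, linear, a scale of its own in each panel) of the 9 members on day 0 and day 30. Bars are means, black lines are SDs and the 3 symbols are the 3 libraries of a day. MALAT1, NEAT1, MIAT, RMST, SOX2-OT and DLX6-AS1 are higher on day 30 and OIP5-AS1 is lower, without overlap, while LINC00461 and PANTR1 stay under 2 CPM.

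**Figure D3:**
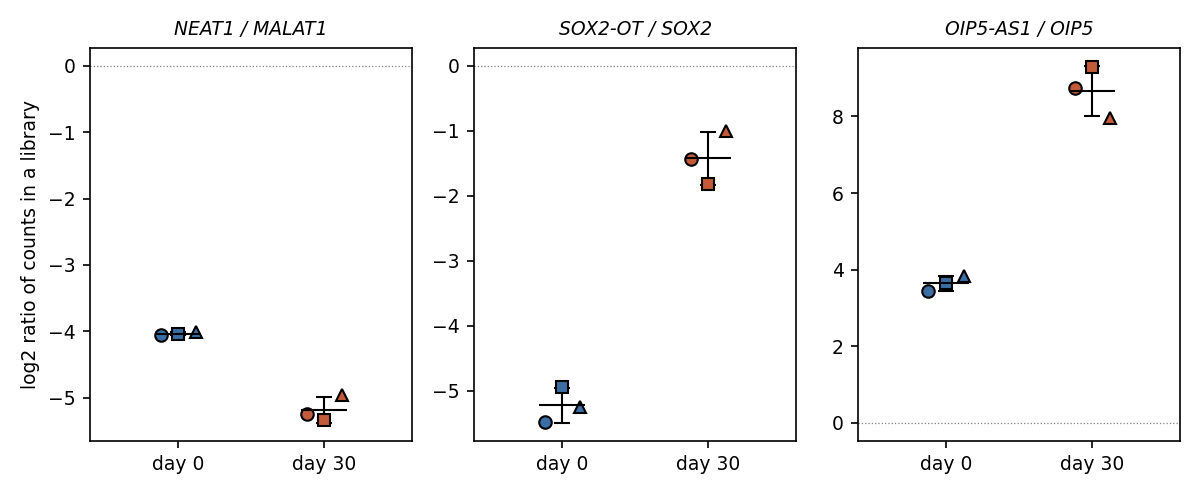
Log2 ratio of the counts of 2 genes in the same library (y axis) on day 0 and day 30, with the 3 libraries of a day as symbols and the mean and SD in black. NEAT1 over MALAT1 goes from -4.03 to -5.18, SOX2-OT over SOX2 from -5.23 to -1.42, and OIP5-AS1 over OIP5 from 3.64 to 8.67.

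Read together, 7 of the 9 members were tested, all 7 passed, 6 were higher on day 30 and 1 was lower, and the ranges of all 7 did not overlap. This has to be read against a comparison in which most genes differed: 76.6% of the 18040 genes tested passed, with 39.8% higher and 36.8% lower, and 79.4% had ranges that did not overlap (43.5% with the higher values on day 30). Among the 2218 long non-coding RNA genes tested, 70.9% passed, 51.4% were higher and 19.5% were lower, 73.8% had ranges that did not overlap, and 54.9% had such ranges with the higher values on day 30. The median log2 change was 2.55 for the 7 members, 0.82 for these long non-coding RNA genes and 0.08 for all genes tested. Passing the test is thus common in these data, and the sizes of the changes say more. A rise with a log2 change of 2 or more was called in 27.7% of long non-coding RNA genes and 17.9% of all genes, and one of 4 or more in 10.3% and 7.13%. DLX6-AS1 had 19 of the 2218 above it by log2 change, MIAT 208, MALAT1 343, RMST 462, NEAT1 600 and SOX2-OT 628.

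**Figure D4:**
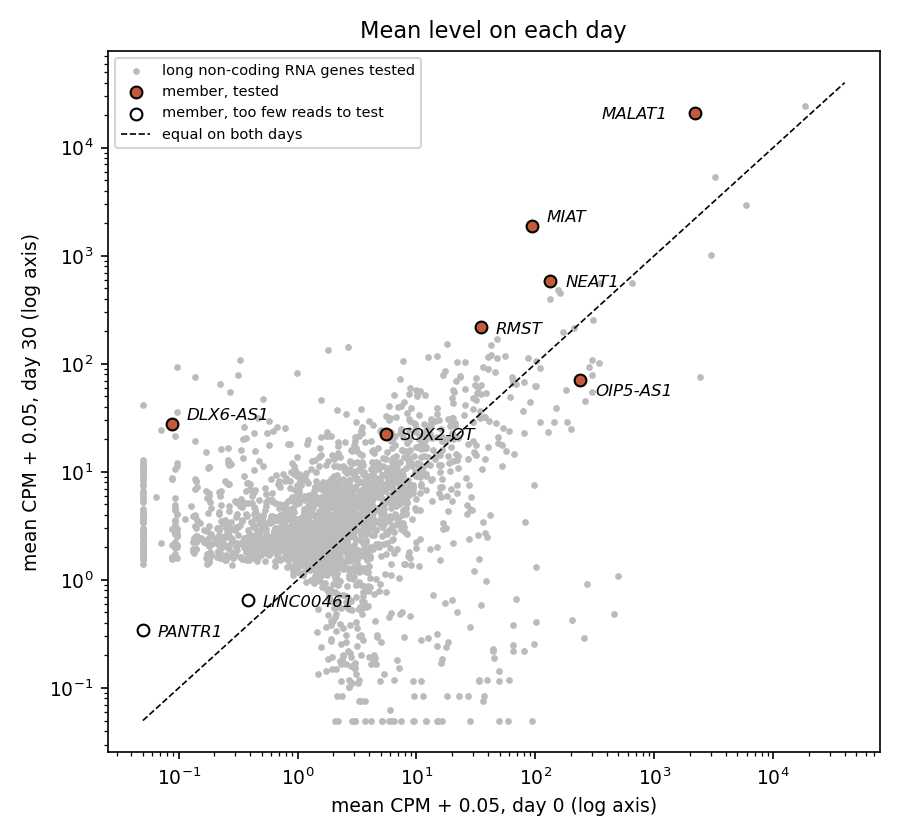
Mean CPM on day 0 (x axis) against mean CPM on day 30 (y axis), both log axes with 0.05 CPM added, for the tested long non-coding RNA genes (grey) and the 9 members (labelled). MALAT1 and MIAT lie well above the dashed line of equal level at the upper end, DLX6-AS1 lies at the left edge with 26.3, 22.9 and 33.2 CPM on day 30, and OIP5-AS1 lies below the line.

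The order of the members by level changed between the days. Per kb of exon, the day 0 means ran from MALAT1 at 249 ± 41.9, OIP5-AS1 at 18.8 ± 1.47, MIAT at 7.89 ± 1.47, NEAT1 at 5.89 ± 0.89 and RMST at 5.46 ± 2.33 to SOX2-OT at 0.174 ± 0.022 CPM per kb (SD, n = 3). LINC00461, DLX6-AS1 and PANTR1 followed with at most 0.111 CPM per kb in any day 0 library. On that day the ranges of MIAT and NEAT1 overlapped, as did those of NEAT1 and RMST, and those of the last 3 members. On day 30 the order was MALAT1 at 2385 ± 116, MIAT at 160 ± 16.1, RMST at 33.8 ± 6.09, NEAT1 at 25.7 ± 3.66, OIP5-AS1 at 5.62 ± 0.31, DLX6-AS1 at 1.65 ± 0.32 and SOX2-OT at 0.711 ± 0.139 CPM per kb (SD, n = 3). None of the neighbours in that order down to SOX2-OT overlapped in range, whereas SOX2-OT overlapped with PANTR1, whose day 30 libraries ran from 0 to 0.945, and PANTR1 with LINC00461. OIP5-AS1 thus moved from place 2 to place 5, and MIAT from place 3 to place 2.

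The share of all counts that went to the 9 members went from 0.271% ± 0.040 to 2.387% ± 0.105 (SD, n = 3), with no test made of this sum. MALAT1 made up 79.6% to 82.7% of that share on day 0 and 87.0% to 89.5% on day 30.

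**Figure D5:**
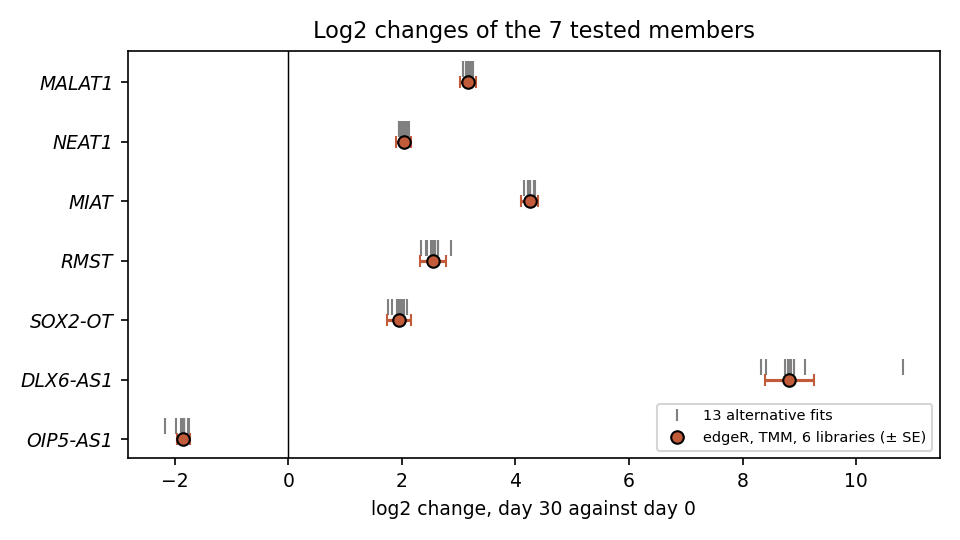
Log2 change of day 30 against day 0 (x axis) of the 7 tested members. Red points with bars are the values from all 6 libraries with their SE, and grey ticks are 13 alternative fits, which leave every member on the same side of 0; the widest spread is that of DLX6-AS1, from 8.32 to 10.82.

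The proteins that work with these RNAs were looked up next. As background for their lists, 14140 protein-coding genes were tested: 5395 rose, 5692 fell and 3053 did not pass, with a median log2 change of -0.04. Of 22 paraspeckle proteins, which assemble on NEAT1, 20 were tested: 2 rose, 14 fell and 4 did not pass, with a median log2 change of -0.88. The largest falls were those of HNRNPA1, a splicing repressor, from 1553 to 1565 CPM on day 0 to 247 to 275 CPM on day 30 (log2 change -2.65 ± 0.12, SE; edgeR adjusted p = 9.56e-09), and DAZAP1, at -2.05 ± 0.12. The 2 that rose were CIRBP, the cold-inducible RNA-binding protein, by 0.90 ± 0.11, and ZC3H6, by 0.66 ± 0.14. Of the core proteins that NEAT1 needs, NONO fell by 1.23 ± 0.11 on the log2 scale, while SFPQ had a log2 change of -0.24 ± 0.10 (edgeR adjusted p = 0.0586) and PSPC1 one of 0.16 ± 0.12 (edgeR adjusted p = 0.246). NONO, SFPQ and PSPC1 were named outside the rule for named genes because their proteins define the paraspeckle.

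All 18 nuclear speckle proteins listed, which share their compartment with MALAT1, were tested: 2 rose, 14 fell and 2 did not pass, with a median log2 change of -0.77. The splicing factors SRSF2 and SRSF7 had the largest falls, with log2 changes of -2.07 ± 0.12 and -2.02 ± 0.11 (SE). SRSF2 was at 204 to 255 CPM on day 0 and 55.6 to 64.3 CPM on day 30. The 2 that rose are CLK1 and CLK4, kinases that phosphorylate SR proteins, with log2 changes of 1.82 ± 0.15 and 1.20 ± 0.16. CLK1 was at 29.5 to 41.5 CPM on day 0 and 129 to 162 CPM on day 30.

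All 7 genes of RNA-binding proteins known to bind members were tested: 1 rose and 6 fell, with a median log2 change of -1.43. The one that rose was CELF3, a neuronal RNA-binding protein known to bind MIAT, at 0, 0.418 and 0.114 CPM on day 0 and 180, 172 and 157 CPM on day 30 (log2 change 9.77 ± 0.31, SE; edgeR adjusted p = 1.44e-09). The genes of QKI and SF1, which are known to bind the heptamer shown for MIAT, both fell: QKI by 1.43 ± 0.12 and SF1 by 0.43 ± 0.11 on the log2 scale. HNRNPA2B1, known to bind RMST, fell by 1.57 ± 0.11, and HNRNPC, known to bind MALAT1, fell by 1.80 ± 0.11. QKI and SF1 were named outside the rule for named genes, for the sequence shown above.

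Of 14 genes next to members, 10 were tested, with 3 higher, 6 lower and 1 not passing. The shares over all genes tested were 39.8% higher and 36.8% lower. MEF2C beside LINC00461 and MIATNB at the 3′ end of MIAT had the largest rises of the list, and OIP5 and NUSAP1 beside OIP5-AS1 the largest falls. MIATNB overlaps MIAT and can share its reads. The other gene that rose was TALAM1, whose reads could not be told apart from those of MALAT1.

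A list of 8 genes tied to the miR-9, miR-7 and miR-135a families holds hosts of these microRNA genes and also LINC00632 and CDR1, which belong to a circular RNA and host none of them. Of the 8, 5 were tested, 3 rose and 2 fell, where 39.8% of all genes tested rose and 36.8% fell. LINC00632, the host of the circular RNA CDR1as, which is known for its many miR-7 sites, was at 11.4 to 13.1 CPM on day 0 and 104 to 134 CPM on day 30 (log2 change 3.10 ± 0.14, SE; edgeR adjusted p = 9.87e-09). The microRNA hosts that rose were RMST and MIR9-3HG, the latter by a log2 of 1.24 ± 0.51 (SE; edgeR adjusted p = 0.0438). HNRNPK, a host of miR-7, fell by 0.94 ± 0.13 on the log2 scale. C1orf61, host of another miR-9 gene, was at 4.32 to 6.77 CPM on day 0 and 1.03 to 3.99 CPM on day 30 and fell by 1.52 ± 0.40 (SE; edgeR adjusted p = 5.35e-03). The entry counted for LINC00632 is the linear host gene, and the circular RNA was not counted apart.

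Among 37 other nuclear and brain long non-coding RNAs, 31 were tested: 17 rose, 4 fell and 10 did not pass, with a median log2 change of 0.73. This is close to the 2218 long non-coding RNA genes tested, of which 51.4% rose and 19.5% fell (median log2 change 0.82). SIX3-AS1, opposite the forebrain factor SIX3, had no reads on day 0 and was at 12.8, 10.8 and 9.77 CPM on day 30, at least 89.6-fold higher. LINC01551 was likewise without reads on day 0 and at least 38.1-fold higher. GAS5, a host of snoRNAs, and DANCR fell, with log2 changes of -2.57 ± 0.11 and -1.92 ± 0.12 (SE). GAS5 was at 291 to 320 CPM on day 0 and 50.8 to 58.2 CPM on day 30.

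Other cell types could carry these RNAs too, so their markers are given for the same libraries. For comparison, 39.8% of all genes tested rose and 36.8% fell. Of 12 neural progenitor genes, 10 were tested, of which 2 rose and 6 fell; SOX1 rose by a log2 of 7.35 ± 0.49, and PROM1 fell by 5.99 ± 0.33. Of 7 astroglia markers, 4 were tested, and SLC1A2, a glutamate transporter, rose (log2 change 4.98 ± 0.20) while SLC1A3 and GJA1 fell by 3.32 ± 0.42 and 3.07 ± 0.48; the summed level of the 7 was 716 to 1130 CPM on day 0 and 276 to 397 CPM on day 30. Of 8 oligodendroglia markers, 6 were tested, and 3 fell, among them SOX10 with a log2 change of -3.73 ± 0.71; their sum was 125 to 189 CPM on day 0 and 30.9 to 61.3 CPM on day 30. Of 10 floor plate and midbrain markers, 4 were tested, of which 3 rose, NKX6-1 among them, and 1 fell, and the summed level was 8.05 to 11.4 CPM on day 0 and 16.6 to 16.9 CPM on day 30. Of 10 mesenchymal and endothelial markers, 5 were tested, of which 3 rose, 1 fell and 1 did not pass. Their sum set day 30 replicate 3 apart, at 4651 CPM against 176 and 657 CPM in the other day 30 libraries. That library also had the highest oligodendroglia sum of its day, 61.3 CPM against 34.9 and 30.9 CPM, and the lowest SOX2, at 37.9 CPM. Without day 30 replicate 3, the log2 changes were 3.21 for MALAT1, 1.95 for NEAT1, 4.22 for MIAT, 2.43 for RMST, 2.10 for SOX2-OT, 8.74 for DLX6-AS1 and -1.83 for OIP5-AS1, and all 7 still passed the test.

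For each tested member the nearest genes over the 6 libraries were found, by the root mean square difference between log2 CPM values after each gene's own mean was removed. The nearest to MALAT1 were EVI5L (0.057) and MDGA2 (0.071), and to NEAT1 they were AGPAT4 (0.046) and NAV1 (0.046). For MIAT they were SPTB, a spectrin gene (0.077), and DYNC1I1, a dynein subunit gene (0.087). RMST was nearest to the calcium channel genes CACNA1B (0.090) and CACNA1G (0.099), and SOX2-OT to JAKMIP1-DT (0.099) and DYNLT3 (0.104). DLX6-AS1 was nearest to CNTN5, a contactin gene (0.120), and GABRB1, a subunit gene of the GABA-A receptor (0.179). OIP5-AS1 was nearest to the ribosomal protein gene RPL10 (0.031) and to AC010422.3 (0.038). Each likeness rests on 6 libraries in 2 groups.

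Promoter windows of RefSeq (GRCh38.p14; 250 bases before to 50 after an annotated start) were found for 8 of the 9 members, 14 windows in all. They are shown for MIAT and DLX6-AS1, the members with the largest log2 rises. The letters TAATTA, the core of many homeodomain sites, were searched on both strands and occurred in 1 window each of SOX2-OT, DLX6-AS1 and LINC00461, and in 4.84% of all 35116 windows. CAGCTG, an E-box of proneural factors and a special case of CANNTG, was in 1 window each of MIAT and LINC00461 and in 17.9% of all windows. ACAATG, a variant SOX motif, was in 1 window each of MIAT, RMST and SOX2-OT and in 10.8% of all windows. The letters TTCAGCACC, part of the REST site, were in none of the 14 windows and in 0.376% of all windows. ACAAAG, another SOX motif, was in windows of MALAT1 and SOX2-OT (16.1% of all windows), TATAAA in windows of the same members (11.5%), and the octamer ATGCAAAT in that of PANTR1 (1.77%). CANNTG was in 12 of the 14 windows (68.7% of all), and CACTTGA, an NKX2 motif, in none of the 14 (2.48% of all). A match is a description of letters, not of a bound site.

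The MIAT window (chr22:26646179-26646478, plus strand) has ACAATG on the reverse strand (read here as CATTGT) and CAGCTG in capitals.
MIAT promoter: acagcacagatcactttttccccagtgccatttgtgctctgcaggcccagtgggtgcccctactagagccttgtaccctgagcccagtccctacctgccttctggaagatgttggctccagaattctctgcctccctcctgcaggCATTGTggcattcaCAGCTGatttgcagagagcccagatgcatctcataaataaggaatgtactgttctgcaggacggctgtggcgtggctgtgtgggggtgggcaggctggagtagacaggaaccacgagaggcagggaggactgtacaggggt

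The DLX6-AS1 window (chr7:97014016-97014315, minus strand) has TAATTA in capitals.
DLX6-AS1 promoter: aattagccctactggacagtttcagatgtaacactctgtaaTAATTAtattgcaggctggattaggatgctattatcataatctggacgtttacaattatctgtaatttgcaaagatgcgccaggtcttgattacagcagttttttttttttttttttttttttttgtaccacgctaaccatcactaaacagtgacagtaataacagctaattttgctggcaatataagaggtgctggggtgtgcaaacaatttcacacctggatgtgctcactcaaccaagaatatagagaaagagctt

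CG pairs were few in most of these windows. MIAT, RMST, SOX2-OT and DLX6-AS1 had 2 or 3 CG pairs in every window, against a median of 14 over all windows. The upstream MALAT1 window had 37 CG pairs, and that of OIP5-AS1, the member that fell, had 23.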

How the data were processed

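Total RNA of H9 cells was sequenced in 3 libraries of day 0 and 3 of day 30. Per the submitters' processing notes, FastQC 0.11.9 and the build hg38 were used. No source used here gives the aligner, counter, annotation or strand setting. The authors deposited expected counts per gene, a unit read from the values: 83.7% of those above 0 are whole, and the others are fractions. They were rounded for the tests, whereas the plan had assumed whole counts. Of 61853 entries, 23900 had no reads. Columns of values not used numbered 0. Symbols matched 42054 entries, and 58254 had a position in GENCODE 29 (same build). Some entries, TALAM1 among them, had none, so the counts were made on another annotation. CPM per kb uses exon lengths of GENCODE 29, which can differ from the exons that were counted.

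Tests used edgeR 4.0.16 in R 4.3.3 (quasi-likelihood, TMM, filterByExpr, Benjamini-Hochberg over 18040 genes, 2-sided; the biological coefficient of variation was 0.153), checked on simulated counts. The SE of a log2 change is its absolute value divided by the square root of F. CPM uses library totals, which were 5013643 to 12924842 counts. Intervals and floors (3 counts over a group) cover counting error only.

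The members and gene lists were chosen with earlier results of these data known. Named genes were the members, the genes of each ratio, the most-read genes, the 2 largest passing rises and falls of each list, and the 2 nearest genes of each member. Some genes that this rule names are not reported here. Alternatives were DESeq2 1.42.0, other filters and scaling, a replicate block, left-out libraries, another prior count, and added reads of overlapping entries.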

Additional observations from a re-analysis of the deposited data

How the results depend on the processing

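In each of 13 alternatives, run for the 7 tested members (the last of them, added reads of overlapping entries, was chosen after seeing the data and left out SOX2 for SOX2-OT and MIATNB for MIAT), 6 members stayed higher and 1 lower, all past the threshold. Log2 changes ranged from 3.08 to 3.26 for MALAT1, 1.95 to 2.12 for NEAT1, 4.15 to 4.34 for MIAT, 2.34 to 2.86 for RMST, 1.76 to 2.10 for SOX2-OT, 8.32 to 10.82 for DLX6-AS1 and -2.17 to -1.75 for OIP5-AS1. The -2.17 came from adding the reads of AC087721.2, which can include reads of NUSAP1. Over all genes, 6783 to 9147 were higher and 6228 to 7692 lower, and the median log2 change was 0.08 with TMM, 0.17 with total counts only and 0.04 with DESeq2. With a prior of 5 counts the log2 ratio of OIP5-AS1 over OIP5 differed by 3.08 in place of 5.03. Without 7SL, 7SK and mitochondrial genes (1011 entries) the members held 2.627% of day 30 counts in place of 2.387%, the total being smaller. Summing entries that share a symbol gave no value, each member having 1. Same-numbered libraries of the days did not deviate together (r across genes 0.0746, -0.0040 and -0.0517), and unlike-numbered ones had r from -0.134 to 0.137. With 3 libraries per day, this cannot exclude that same-numbered libraries shared a culture or batch. With a replicate block, 13336 genes passed in place of 13827, with 6 members higher and 1 lower. The sign-flip p of each ratio was then 0.25, the smallest 3 pairs allow. LINC00461 and PANTR1 did not pass the filter on low counts, and with no filter their adjusted p was 0.918 and 0.118.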

Other observations

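In 1 library of each day, most of the long non-coding RNA genes had their highest level of that day, which was noticed after the values were seen. On day 0, replicate 1 held the highest CPM of MALAT1, NEAT1, MIAT and RMST, and of 58.5% of 2147 long non-coding RNA genes with reads on that day, against 43.2% of 14050 protein-coding genes. On day 30, replicate 3 held the highest CPM of NEAT1, MIAT, RMST, DLX6-AS1 and OIP5-AS1, and of 55.6% of 2193 long non-coding RNA genes, against 42.7% of 14103 protein-coding genes. The median log2 difference of long non-coding RNA genes from the other libraries of the day was 0.30 in day 0 replicate 1 and 0.20 in day 30 replicate 3. Both are small beside the changes between the days, where the smallest of the 7 tested members was 1.84 in size (OIP5-AS1).

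As a class, long non-coding RNA genes held 4.98% to 6.10% of counts in the day 0 libraries and 7.87% to 8.28% in the day 30 libraries. By this summed share, day 30 replicate 3 was the lowest of its day, unlike by the count of genes, and day 0 replicate 1 the highest. MALAT1 alone was 0.187% to 0.26% and 1.998% to 2.201% of all counts.

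KCNQ1OT1 and FTX, nuclear RNAs of an imprinted locus and of the X inactivation centre, rose between the days by a log2 of 1.42 ± 0.21 and 1.54 ± 0.18 (SE; edgeR adjusted p = 9.89e-05 and 1.68e-05). SNHG14, the host of the snoRNAs of the Prader-Willi locus, fell from 5088 to 7103 CPM to 2753 to 3297 CPM, a log2 change of -1.10 ± 0.13 (SE; edgeR adjusted p = 2.01e-05), and its counts can hold reads of the snoRNAs inside it. TUG1 was at 188 to 223 CPM on day 0 and 204 to 231 CPM on day 30 (log2 change -0.07 ± 0.11, SE; edgeR adjusted p = 0.603). These genes were chosen after their values were seen.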
